A study of Mus musculus with 4 samples.

Results

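The BCL2 family genes examined here were a set of 10, namely Bcl2, Mcl1, Bcl2l1, Bax, Bak1, Bcl2l11, Bbc3, Pmaip1, Bid and Bmf, out of 41214 genes in the table of counts. They were listed by name, as survival and death genes of the family, and no threshold on measured values entered the list, although earlier results of these data were known when it was made. RNA was sequenced from unstimulated splenocytes carrying B220, a surface form of CD45 used to select mouse B cells. The MIZ-1△POZ mice carried the floxPOZ allele of Miz-1 and MB1-Cre, a Cre recombinase under the Cd79a promoter, which is active in B cells, so that the POZ domain of the transcription factor MIZ-1 was deleted in B cells. The control mice were labelled MIZ-1WT, and whether they carried the Cre or the floxed allele was not given in the sources used here. All mouse lines were on a C57BL/6 background, and a single age range was given for all mice of the study. Each genotype had 2 libraries labelled as biological replicates, the number of animals behind each was not given, and p-values measured only the spread between these libraries.

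The BCL2 family sets the threshold of the mitochondrial pathway of apoptosis. The guardians, such as BCL2, MCL1 and BCL-XL, hold the effectors BAX and BAK in check at the outer mitochondrial membrane, and the BH3-only proteins bind the guardians or activate the effectors directly. Once BAX or BAK opens the membrane, cytochrome c joins APAF1 and caspase-9 is activated, and naïve B cells depend on guardians for their survival.

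Gene counts summed to between 43026814 and 46387209 in each library. The libraries of the genotypes also differed in cell type markers and in sex. Higher and lower here mean an adjusted p under 0.05 in edgeR's quasi-likelihood test. Over all tested genes, 21.1% were higher and 18.9% lower in MIZ-1△POZ. Of 16 macrophage genes, all 16 were higher in MIZ-1△POZ and none was at 0 in any library, and their summed level was 949 and 1260.1 CPM (counts scaled to a common library size) in MIZ-1WT against 5639.9 and 3566 CPM in MIZ-1△POZ. Of 10 pan-B cell genes, such as Ms4a1 and Cd79b, 8 were lower in MIZ-1△POZ, and their summed level was 10233 and 10553 CPM against 8567 and 8941 CPM. Of 6 plasma cell genes, 5 were higher (summed level 734 and 1059 CPM against 2477 and 2309.9 CPM), as were 7 of 8 marginal zone B cell genes (3424 and 3449.6 CPM against 4006 and 4392 CPM), whereas 3 of 5 follicular B cell genes in the table were lower (1730.4 and 1848 CPM against 1416 and 1522 CPM). Of 10 T cell genes, 2 were higher and 1 lower. Of 8 dendritic cell genes, 3 were higher and 1 lower. Among 7 neutrophil genes tested 2 were higher, and among 8 erythroid genes 1 was higher. The count of Xist was 49 and 60 in MIZ-1WT and 38145 and 40838 in MIZ-1△POZ, and all 4 Y-linked genes were lower in MIZ-1△POZ. Sex and genotype therefore cannot be told apart for any gene below. The Y-linked genes were not absent from MIZ-1△POZ, where Ddx3y had counts of 680 and 622 against 15840 and 14896 in MIZ-1WT, and the source of these reads was not tested. In bulk RNA, fewer cells of a type and less RNA per cell cannot be told apart either.

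Within the BCL2 family, RNA of the guardian Bcl2 and of the BH3-only genes Bbc3, Pmaip1 and Bid rose in MIZ-1△POZ, whereas RNA of the guardian Mcl1 and of the BH3-only gene Bmf fell. The effectors Bax and Bak1, the guardian Bcl2l1 and the BH3-only gene Bcl2l11 did not pass the test. All 10 genes were measured well enough to be tested, and 4 were higher and 2 lower at an adjusted p under 0.05 in the quasi-likelihood test of edgeR, with p-values adjusted by the Benjamini-Hochberg method over 14554 genes. Over all tested genes 40.0% passed the same threshold, 21.1% higher and 18.9% lower in MIZ-1△POZ. The same 6 genes were those whose libraries did not overlap between the genotypes, which held for 74.8% of all tested genes. On the log2 scale the median difference, MIZ-1△POZ over MIZ-1WT, was 0.14 for the 10 genes and -0.01 for all tested genes. With the fold limit used in the study (a log2 difference of 0.6 or more up or down), taken here with a p under 0.05 without adjustment, 2 of the 10 genes passed, Bbc3 and Bmf, beside 20.3% of all tested genes. Fold changes of the genes called spanned 1.25 for Bcl2 to 2.12 for Bbc3 among those that rose, and were 0.777 for Mcl1 and 0.458 for Bmf. As an alternative, the libraries were scaled so that the mean log level of the 10 pan-B cell genes was equal, called held level below. Single genes of the 10 were not made level by this, since their log2 fold changes before it ran from -0.71 for Vpreb3 to -0.10 for Blk. The median of all genes then shifted by 0.34 on the log2 scale. With this scaling 51.7% of genes were higher and 3.51% lower (55.3% together). Among the family 7 were higher and 1, Bmf, was lower.

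**Figure D1:**
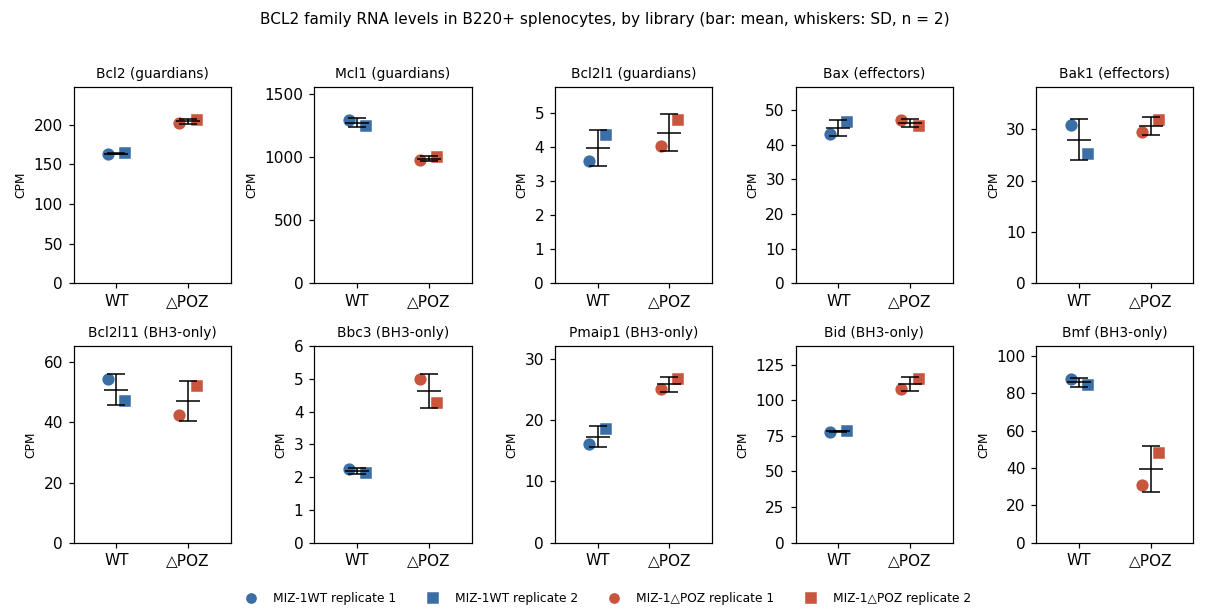
Level of each BCL2 family gene in CPM (vertical axes, each from 0) in each of the 4 libraries, with the mean and SD of each genotype (n = 2). The libraries of the genotypes do not overlap for Bcl2, Mcl1, Bbc3, Pmaip1, Bid and Bmf, and overlap for Bcl2l1, Bax, Bak1 and Bcl2l11.

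The promoter sequences of 5 of the 6 called genes are shown to set those that rose beside those that fell. No window was taken for Pmaip1, which also rose. Each is the stretch of 250 bases ahead of the most upstream RefSeq start (build GRCm38.p6), read 5′ to 3′ on the strand of the gene. The stretch was cut where it met an annotated exon of the gene. This left 221 bases for Bid and 249 for Bmf, which end short of that start. These were chr1:106714291-106714540 on the minus strand for Bcl2, chr6:120916854-120917074 on the minus strand for Bid, chr7:16309333-16309582 on the plus strand for Bbc3, chr3:95658471-95658720 on the plus strand for Mcl1 and chr2:118549688-118549936 on the minus strand for Bmf. The window of Bbc3 lies within the span of the gene, outside its exons, because the annotation has a start further upstream. Capitals mark the GC box (GGGCGG) and the CCAAT box (CCAAT), each on either strand.
Bcl2: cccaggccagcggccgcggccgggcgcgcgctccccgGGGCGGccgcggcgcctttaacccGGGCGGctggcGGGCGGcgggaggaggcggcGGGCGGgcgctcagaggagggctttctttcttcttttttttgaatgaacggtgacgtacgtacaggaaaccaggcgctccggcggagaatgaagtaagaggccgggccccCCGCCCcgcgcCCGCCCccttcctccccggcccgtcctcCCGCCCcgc
Bid: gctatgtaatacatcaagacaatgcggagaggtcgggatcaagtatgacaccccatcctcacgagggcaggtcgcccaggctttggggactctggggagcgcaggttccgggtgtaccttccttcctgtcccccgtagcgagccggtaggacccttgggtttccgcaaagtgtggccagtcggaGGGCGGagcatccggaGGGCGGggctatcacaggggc
Bbc3: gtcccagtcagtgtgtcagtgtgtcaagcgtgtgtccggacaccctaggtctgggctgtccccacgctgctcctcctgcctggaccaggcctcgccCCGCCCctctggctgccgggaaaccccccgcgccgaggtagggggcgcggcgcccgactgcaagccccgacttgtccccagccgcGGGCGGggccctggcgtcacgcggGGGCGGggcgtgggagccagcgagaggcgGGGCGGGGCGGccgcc
Mcl1: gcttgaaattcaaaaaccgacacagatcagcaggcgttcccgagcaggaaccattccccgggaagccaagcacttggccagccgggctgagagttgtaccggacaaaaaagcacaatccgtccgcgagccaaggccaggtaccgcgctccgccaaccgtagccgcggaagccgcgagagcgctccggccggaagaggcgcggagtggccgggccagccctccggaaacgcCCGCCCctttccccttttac
Bmf: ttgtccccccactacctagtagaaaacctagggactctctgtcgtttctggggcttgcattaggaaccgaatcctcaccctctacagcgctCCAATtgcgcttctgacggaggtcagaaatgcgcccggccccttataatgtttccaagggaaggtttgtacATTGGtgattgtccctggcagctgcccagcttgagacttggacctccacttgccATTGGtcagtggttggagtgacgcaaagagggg
The GC box, the site class bound by SP1-type factors, was present 7 times in the Bcl2 window, 2 times in that of Bid, 5 times in that of Bbc3 and 1 time in that of Mcl1. The Bmf window held no GC box and 3 CCAAT boxes, and no other of the 5 windows held a CCAAT box. The GC content was 74.8% for Bcl2, 62.4% for Bid, 76.4% for Bbc3, 64.4% for Mcl1 and 53.8% for Bmf. Among 32851 RefSeq promoters with 250 bases ahead of the start, 32.7% held a GC box and 33.8% a CCAAT box. None of these 5 windows held an E-box (CACGTG, in 6.02% of promoters), a FOXO core (GTAAACA, in 3.17%) or a TATA box (TATAAA, in 12.4%). Windows of the same kind for genes not called, not printed here, held 2 GC boxes for Bax, 3 for Bcl2l11 and none for Bcl2l1. No window is given for Bak1. The Bcl2l11 window also held 1 CCAAT box and 1 FOXO core, and the Bax window 1 E-box. These matches describe letters in the windows, and whether any is bound was not tested.

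Among the guardians, Bcl2 (ENSMUSG00000057329, chr1:106538178-106714274, minus strand) is the founding member and holds both BAX-type effectors and BH3-only proteins. Its level was 163 and 164 CPM in MIZ-1WT replicates 1 and 2 and 202 and 206 CPM in MIZ-1△POZ replicates 1 and 2. The replicates of each genotype lay close together and the genotypes did not overlap. Bcl2 RNA rose by a log2 fold change of 0.32 ± 0.04 (SE, n = 2 per genotype), with a 95% confidence interval from 0.22 to 0.43 and an adjusted p of 0.00380 in edgeR's quasi-likelihood test. It stayed between 0.32 and 0.35 when any one library was left out. An antisense gene, D630008O14Rik, covers 6.09% of the exon bases of Bcl2 and had 41 to 59 counts per library. The effect of this overlap on the counts of Bcl2 was not tested.

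Mcl1 (ENSMUSG00000038612, chr3:95658788-95663176, plus strand) encodes a short-lived guardian that binds BAK and BIM. Its level was 1295 and 1246 CPM in MIZ-1WT and 973 and 1001 CPM in MIZ-1△POZ. Both MIZ-1△POZ libraries lay below both MIZ-1WT libraries. Mcl1 RNA fell, with a log2 fold change of -0.36 ± 0.05 (SE), a 95% confidence interval from -0.50 to -0.23 and an adjusted p of 0.00515 in edgeR's quasi-likelihood test. This call rests on the scaling, since with the pan-B cell genes held level the log2 fold change of Mcl1 was -0.02 (adjusted p = 0.802).

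Bcl2l1 (ENSMUSG00000007659, chr2:152780668-152831728, minus strand), which encodes BCL-XL, was the guardian with the least RNA of the 3. Its level was 3.60 and 4.35 CPM in MIZ-1WT and 4.05 and 4.81 CPM in MIZ-1△POZ, from 157 to 211 counts per library. The libraries of the genotypes overlapped. Its fitted log2 fold change was 0.16 ± 0.18 (SE), and the 95% confidence interval ran from -0.28 to 0.59, so that neither a modest fall nor a rise of up to 0.59 lay outside it (adjusted p = 0.516 in edgeR's quasi-likelihood test). With the pan-B cell genes held level it was 0.50 and past the threshold (adjusted p = 0.0422).

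Neither effector passed the test. Bax (ENSMUSG00000003873, chr7:45461697-45466898, minus strand), whose product moves from the cytosol to mitochondria on activation, was at 43.1 and 46.5 CPM in MIZ-1WT and 47.2 and 45.5 CPM in MIZ-1△POZ. Fitted over all libraries, the log2 fold change of Bax was 0.05 ± 0.06 (SE), with a 95% confidence interval from -0.11 to 0.20 (adjusted p = 0.574 in edgeR's quasi-likelihood test), the narrowest interval among the genes not called. Bak1 (ENSMUSG00000057789, chr17:27019810-27029009, minus strand), whose product sits in the mitochondrial outer membrane, was at 30.8 and 25.1 CPM in MIZ-1WT and 29.4 and 31.8 CPM in MIZ-1△POZ. Here the MIZ-1WT replicates differed from each other by more than the MIZ-1△POZ replicates did. For Bak1 the log2 fold change was 0.13 ± 0.11 (SE), with a 95% confidence interval from -0.14 to 0.40 (adjusted p = 0.389). Exons of Ggnbp1 on the opposite strand cover 18.2% of the exon bases of Bak1, and the strand setting of the counting was not stated. Exons of Gm45808 on the same strand cover 12.2% of the exon bases of Bax. With the pan-B cell genes held level both effectors passed the threshold, at 0.39 for Bax (adjusted p = 0.00663) and 0.47 for Bak1 (adjusted p = 0.00849).

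Among the BH3-only genes, Bid (ENSMUSG00000004446, chr6:120891930-120916853, minus strand) links death receptors to mitochondria, since its product is activated by caspase-8 cleavage. Its level was 78.0 and 78.6 CPM in MIZ-1WT and 108 and 115 CPM in MIZ-1△POZ. The genotypes did not overlap, and the gap between them was several times the gap between replicates. Bid RNA rose by a log2 fold change of 0.51 ± 0.05 (SE), with a 95% confidence interval from 0.38 to 0.64 and an adjusted p of 0.00206 in edgeR's quasi-likelihood test, the smallest of the 10 genes. Bcl2l13 on the opposite strand covers 17.7% of the exon bases of Bid. The counts of Bcl2l13 were 1884 and 1756 in MIZ-1WT and 1958 and 1876 in MIZ-1△POZ. They gave a log2 fold change of -0.02 (adjusted p = 0.819 in the same test). The effect of this overlap on the counts of Bid was not tested.

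Bbc3 and Pmaip1 encode PUMA and NOXA, BH3-only proteins known as targets of p53. Bbc3 (ENSMUSG00000002083, chr7:16308393-16318205, plus strand) was at 2.25 and 2.12 CPM in MIZ-1WT and 5.0 and 4.26 CPM in MIZ-1△POZ, from 98 and 89 counts against 238 and 187. Both MIZ-1△POZ libraries lay above both MIZ-1WT libraries. Bbc3 RNA rose by a log2 fold change of 1.09 ± 0.17 (SE), with a 95% confidence interval from 0.66 to 1.51 and an adjusted p of 0.00627 in edgeR's quasi-likelihood test, the largest rise of the 10 genes.

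Pmaip1 (ENSMUSG00000024521, chr18:66458533-66465565, plus strand), whose product binds MCL1, was at 16.1 and 18.5 CPM in MIZ-1WT and 25 and 26.7 CPM in MIZ-1△POZ. The genotypes did not overlap. Pmaip1 RNA rose by a log2 fold change of 0.58 ± 0.09 (SE), with a 95% confidence interval from 0.35 to 0.81 and an adjusted p of 0.00664 in edgeR's quasi-likelihood test. Trp53, the gene of p53 itself, had counts of 1738 and 1495 in MIZ-1WT and 1327 and 1570 in MIZ-1△POZ, which overlapped, and its log2 fold change of -0.25 did not pass (adjusted p = 0.182).

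Bmf (ENSMUSG00000040093, chr2:118528757-118549687, minus strand) encodes a BH3-only protein that is held at the cytoskeleton until it is released. Its level was 87.8 and 84.3 CPM in MIZ-1WT and 30.8 and 48.0 CPM in MIZ-1△POZ. The genotypes did not overlap, and the MIZ-1△POZ replicates differed from each other more than those of any other called gene of the family, relative to their mean. Bmf RNA fell, with a log2 fold change of -1.13 ± 0.19 (SE), a 95% confidence interval from -1.61 to -0.65 and an adjusted p of 0.00830 in edgeR's quasi-likelihood test, the largest fall of the 10 genes. It was -0.79 with the pan-B cell genes held level and remained past the threshold. Without MIZ-1WT replicate 1 the log2 fold change was -1.10 and the call was lost (adjusted p = 0.0523), and over the libraries left out in turn it ran from -1.46 to -0.83, the latter without MIZ-1△POZ replicate 1.

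Bcl2l11 (ENSMUSG00000027381, chr2:128126038-128162547, plus strand) encodes BIM, the BH3-only protein needed to remove autoreactive B cells. Its level was 54.5 and 47.2 CPM in MIZ-1WT and 42.5 and 52.0 CPM in MIZ-1△POZ. The libraries overlapped, and the spread within MIZ-1△POZ was larger than the gap between the genotype means. The fitted difference was -0.11 ± 0.12 (SE) on the log2 scale, with a 95% confidence interval from -0.40 to 0.18 (adjusted p = 0.504 in edgeR's quasi-likelihood test), and it had the other sign, 0.23, with the pan-B cell genes held level (adjusted p = 0.0866).

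**Figure D2:**
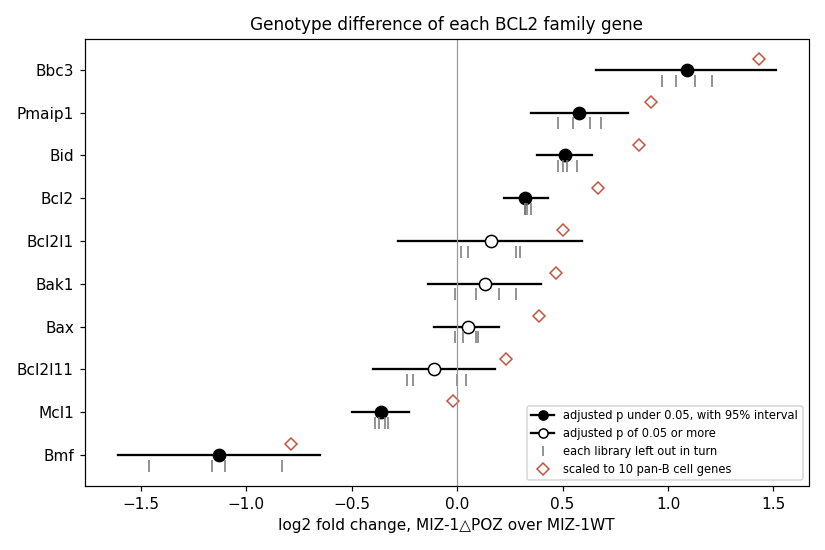
Log2 fold change of each BCL2 family gene, MIZ-1△POZ over MIZ-1WT (horizontal axis), with its 95% confidence interval. Ticks give each value with 1 library left out, and diamonds the value with the pan-B cell genes held level on average. Bbc3, Pmaip1, Bid and Bcl2 lie above 0 and Bmf below 0 in all of these, whereas Mcl1 moves from -0.36 to -0.02 with the pan-B cell scaling.

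The MIZ-1△POZ library with the higher macrophage signal, replicate 1, also had the lower level of Bmf (30.8 against 48.0 CPM) and Mcl1 (973 against 1001 CPM), the genes that fell. For the genes that rose, Bbc3 was higher in that library (5.0 against 4.26 CPM), and Bcl2 (202 against 206 CPM), Bid (108 against 115 CPM) and Pmaip1 (25 against 26.7 CPM) were lower in it. Of the genes that did not pass, Bax was higher in it (47.2 against 45.5 CPM), and Bcl2l11 (42.5 against 52.0 CPM), Bak1 (29.4 against 31.8 CPM) and Bcl2l1 (4.05 against 4.81 CPM) were lower. The part of macrophage, plasma cell or marginal zone B cell RNA in the differences of these genes was not tested.

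Levels of different genes were compared only as CPM per kilobase of exon, taking all annotated exons of a gene together. On this scale Mcl1 was far above the other 9 genes in every library, at 379 and 365 in MIZ-1WT and 285 and 293 in MIZ-1△POZ. Bax followed in MIZ-1WT at 27.4 and 29.5, then Bid at 22.0 and 22.2, Bcl2 at 17.8 and 17.9, Bmf at 16.7 and 16 and Bak1 at 12.8 and 10.4, each pair of neighbours without overlap of their libraries. Bcl2l11 (6.79 and 5.88) and Pmaip1 (5.89 and 6.76) exchanged places between the MIZ-1WT replicates and were not separated. Bbc3 (1.06 and 0.997) and Bcl2l1 (0.785 and 0.949) were lowest.

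In MIZ-1△POZ Bid and Bax were the next after Mcl1, at 30.4 and 32.5 for Bid and 29.9 and 28.8 for Bax, followed by Bcl2 at 22.1 and 22.5 and Bak1 at 12.2 and 13.2. Pmaip1 came next at 9.16 and 9.75, above Bmf at 5.87 and 9.14 and Bcl2l11 at 5.30 and 6.48, and the last pair overlapped. Bbc3 at 2.35 and 2.01 lay above Bcl2l1 at 0.884 and 1.05. With the median length of coding transcripts in place of all exons, Mcl1 stayed first and Bcl2l1 last in all 4 libraries, whereas the places of Bax, Bid, Bmf, Bcl2l11, Bak1, Bbc3 and Pmaip1 shifted in at least 1 library.

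**Figure D3:**
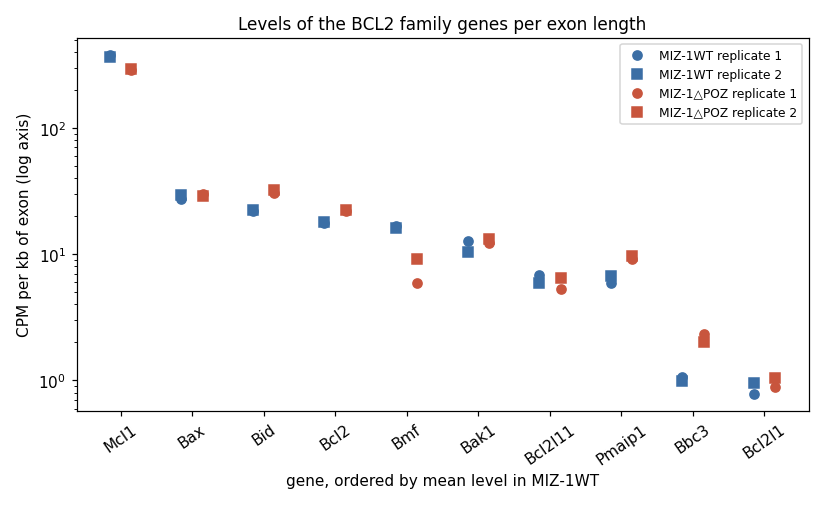
Level of each BCL2 family gene in CPM per kilobase of exon (vertical log axis) in each library, ordered by the mean level in MIZ-1WT. Mcl1 sits between 285 and 379 in all 4 libraries, and all other genes lie at or below 32.5 in all of them.

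Ratios between genes within a library do not depend on how libraries are scaled. The ratio of Mcl1 to Bcl2, per kilobase, was 21.3 and 20.4 in MIZ-1WT and 12.9 and 13.0 in MIZ-1△POZ (means 20.8 ± 0.663 and 12.9 ± 0.0759, SD, n = 2 each). The ratio of the effector Bax to the guardian Bcl2 was 1.54 and 1.65 in MIZ-1WT and 1.36 and 1.28 in MIZ-1△POZ. The ratio of Bcl2l11 to Bcl2 was 0.382 and 0.329 against 0.240 and 0.287. Its level depends on the length used, since it was 0.674 and 0.580 against 0.424 and 0.508 with the median length of coding transcripts. All 3 ratios were lower in both MIZ-1△POZ libraries than in both MIZ-1WT libraries. They share Bcl2, and the genes set over it were genes that fell or did not pass. Bid, Pmaip1 and Bbc3 had larger log2 fold changes (0.51, 0.58 and 1.09) than Bcl2 (0.32), and no ratio to Bcl2 was taken for them. The ratios are given without a test, and how often ratios of other genes to Bcl2 separate the genotypes was not computed.

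Genes around the family were taken from lists of the same pathway, 64 genes in all. Of these, 59 were tested, 14 were higher and 8 lower, a share of 37.3% beside 40.0% of all genes, with a median log2 fold change of -0.01. Bcl2l10, Bok, Bik, Hrk and Trim17 had too few counts to be tested. With the pan-B cell genes held level, 38 were higher and none was lower in edgeR's quasi-likelihood test. Over all tested genes, 51.7% were higher and 3.51% lower with this scaling. The median log2 fold change with it was 0.33 for the pathway genes and 0.34 for all tested genes. Of the 8 genes that were lower, Bnip3, Bnip3l, Foxo1 and Rel then kept a negative log2 fold change (-0.26, -0.03, -0.21 and -0.26), Xiap was at 0.00, and Casp2, Rela and Nfkb1 were at 0.10, 0.07 and 0.15.

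Among 4 other guardians tested, 3 were higher, all of them copies of Bcl2a1, which encodes the guardian A1. Bcl2a1a had counts of 45 and 44 in MIZ-1WT and 217 and 140 in MIZ-1△POZ, and its log2 fold change was 1.90 (95% interval 1.29 to 2.50, adjusted p = 0.00359). Bcl2a1b and Bcl2a1d had log2 fold changes of 0.36 and 0.39 (adjusted p = 0.00951 and 0.0329). These copies are nearly identical in sequence, so how reads were divided among them is uncertain, and a further gene on the same strand shares 49.1% of the exon bases of Bcl2a1b. Among 3 other BH3-only and BNIP genes tested, none was higher and 2 were lower, the mitophagy receptors Bnip3 (log2 fold change -0.61, adjusted p = 0.0184) and Bnip3l (-0.37, adjusted p = 0.00378). Among 4 BCL2-like genes, Bcl2l14 (1.11, adjusted p = 0.0132) and Bcl2l15 (1.75, adjusted p = 0.00453) were higher, both from at most 104 counts per library. Other genes share 22.3% of the exon bases of Bnip3 and 14.1% of those of Bcl2l14, on the opposite strand, and 21% of those of Bcl2l15, on the same strand.

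Downstream of the mitochondria, 12 of 15 apoptosome and caspase genes did not pass. Among those that did, Endog, a mitochondrial nuclease, was higher, with counts of 204 and 224 in MIZ-1WT and 335 and 349 in MIZ-1△POZ (log2 fold change 0.58, adjusted p = 0.0233 in edgeR's quasi-likelihood test). Exons of Spout1 on the opposite strand cover 35.7% of the exon bases of Endog, and the strand setting of the counting was not stated. Casp2 was lower (-0.25, adjusted p = 0.0131). Of the genes for parts of the apoptosome, Apaf1 and Casp9 had log2 fold changes of -0.16 and -0.10 (adjusted p = 0.0658 and 0.272). Cycs, which encodes cytochrome c, was at 0.14 (adjusted p = 0.129 in the same test).

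Of 5 IAP genes, Birc5, which encodes the mitotic protein survivin, was higher, with counts of 257 and 192 against 893 and 762 and a log2 fold change of 1.79 (95% interval 1.44 to 2.14, adjusted p = 0.00117). Xiap, an inhibitor of caspases, was lower (-0.35, adjusted p = 0.00413). In the death receptor arm, which meets the family at Bid, 2 of 7 genes were higher and none lower. Fas had counts of 317 and 343 against 840 and 666 (log2 fold change 1.09, adjusted p = 0.00232), and the TNF receptor gene Tnfrsf1a had 117 and 86 against 480 and 277 (1.79, adjusted p = 0.00579). Casp8, which cleaves BID, had a log2 fold change of 0.04 (adjusted p = 0.610).

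The channel genes Vdac1 and Vdac2, whose products sit in the outer membrane beside BAX and BAK, were higher at 0.43 (adjusted p = 0.00328) and 0.25 (adjusted p = 0.0160). None of 5 tested genes for the turnover of MCL1 and BIM passed, among them Huwe1, a ubiquitin ligase of MCL1 (-0.18, adjusted p = 0.175), and Usp9x, which removes ubiquitin from it (0.05, adjusted p = 0.417). Of 13 genes for transcription factors known to act on the family, Myc (0.53, adjusted p = 0.0139) and Trp73 were higher. Trp73 had 1 count in each MIZ-1WT library and 99 and 29 in the MIZ-1△POZ libraries. Its fitted log2 fold change was 5.72 (95% interval 3.32 to 8.13, adjusted p = 0.00797 in edgeR's quasi-likelihood test). The size of this difference is uncertain, since it rests on 1 count per MIZ-1WT library. The NF-κB genes Rel (-0.60, adjusted p = 0.0125), Rela (-0.27, adjusted p = 0.0226) and Nfkb1 (-0.20, adjusted p = 0.0233) were lower, as was Foxo1 (-0.55, adjusted p = 0.0253), whose product is known to act on Bcl2l11.

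**Figure D4:**
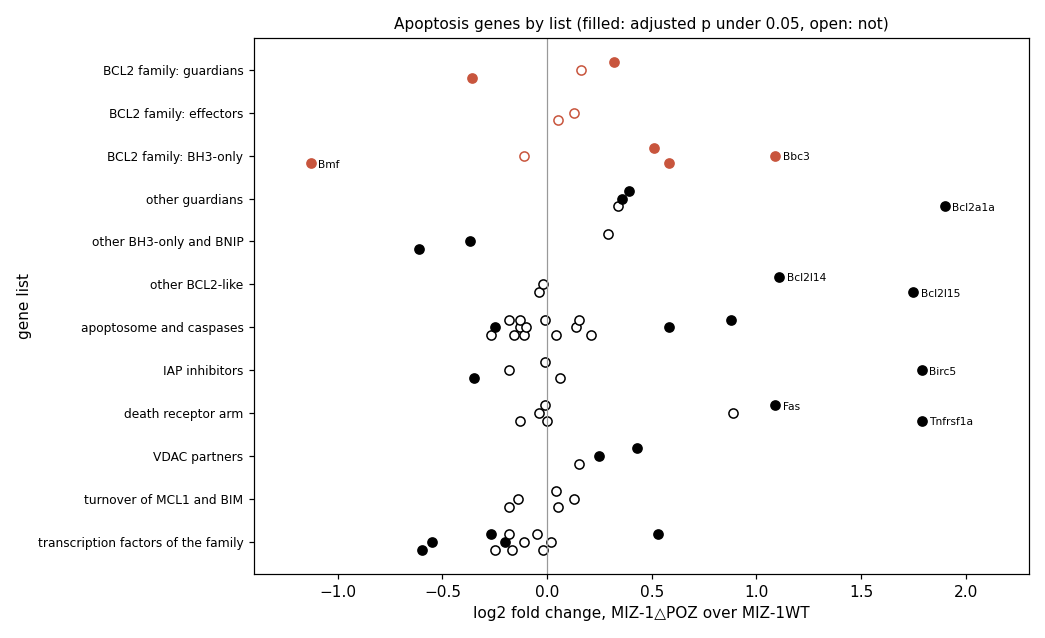
Log2 fold change, MIZ-1△POZ over MIZ-1WT (horizontal axis), of the BCL2 family genes (red) and of the tested genes of each pathway list (black), filled where the adjusted p was under 0.05. Trp73 is left out because it had 1 count in each MIZ-1WT library, and Bmf at -1.13 lies furthest below 0.

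Fewer genes passed with a control library left out, over the whole table as in the pathway lists. Without MIZ-1WT replicate 1, 9 of the 59 pathway genes passed the threshold, beside 15.5% of all genes tested, and without MIZ-1WT replicate 2, 11 did, beside 19.7%. Rel did not pass without MIZ-1WT replicate 1 (-0.46, adjusted p = 0.0661), and Myc did not pass without MIZ-1WT replicate 2 (0.40, adjusted p = 0.0630). Bcl2a1b, Bcl2a1d, Bnip3, Bcl2l14, Casp2, Endog, Vdac2, Trp73, Foxo1, Rela and Nfkb1 lost their calls when either control library was left out, with adjusted p-values between 0.0510 for Bcl2l14 and 0.194 for Bcl2a1d. Bcl2a1a, Bnip3l, Bcl2l15, Xiap, Birc5, Fas, Tnfrsf1a and Vdac1 passed with any one library left out. Among the BCL2 family genes, the log2 fold change with each library left out in turn ran from 0.32 to 0.35 for Bcl2. It ran from -0.39 to -0.33 for Mcl1 and from 0.48 to 0.57 for Bid. For Bbc3 it ran from 0.97 to 1.21 and for Pmaip1 from 0.48 to 0.68. With a control library left out, several of these genes lay just under the threshold.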

How the data were processed

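The authors trimmed the paired reads, aligned them to GRCm38 with TopHat2 (version 2.1.0 in the submitters' notes), counted reads per Ensembl gene with HTSeq and deposited the raw counts. The strand setting and the Ensembl release were not given in the sources used here. Symbols came from GENCODE for 40254 of 41214 genes. Reads outside genes (21.1% to 27.2%) and without a unique alignment (42.8% to 44.1%) stayed out of library sizes.

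edgeR 4.0.16 in R 4.3.3 was run with TMM factors (0.9771 to 1.026) and the quasi-likelihood test on genes reaching 10 counts in 2 or more libraries. The procedure was tested on simulated data. Replicates differed beyond sampling noise (chi-square per degree of freedom 10.1 in MIZ-1WT and 22 in MIZ-1△POZ). Alternatives included DESeq2 1.42.0, other filters and scalings, a replicate block and leaving out each library. The genes and lists were chosen with earlier results of these data known. All 10 genes were named, and of each pathway list the called genes, at most 4 per direction. Some genes that meet this rule were not reported here.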

Additional observations from a re-analysis of the deposited data

How the results depend on the processing

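The 6 calls among the 10 BCL2 family genes were also 6 with DESeq2's size factors within edgeR, with DESeq2's Wald test, without a filter on counts and without immunoglobulin segments. The fold limit of the study with an unadjusted p left 2 of them, Bbc3 and Bmf, as well as 10 pathway genes and 2960 genes over all (20.3%). Keeping only genes with a mean of 30 RPM or more left 6 family genes to test, of which 4 were called, with 13 pathway genes and 2746 genes over all. Scaling to the pan-B cell genes, chosen after the data were examined, gave 8 family genes, 38 pathway genes and 8042 genes over all, and turned the direction of Bcl2l11 to 0.23, Casp2 to 0.10, Rela to 0.07 and Nfkb1 to 0.15. Xiap was left with no difference, at 0.00. The calls of Mcl1 (-0.02), Bnip3 (-0.26), Bnip3l (-0.03), Foxo1 (-0.21) and Rel (-0.26) were lost with the sign kept. The stricter limits and filter lower the counts by their construction, and the cause of the other shifts was not tested.

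Leaving out 1 library gave between 5 and 6 family genes, between 9 and 27 pathway genes and between 2222 and 5580 genes over all, the lone library being assumed to vary like the other genotype. The direction turned for 3 genes that were not called, Bcl2l11 (0.04 without MIZ-1△POZ replicate 1, over a range from -0.24), Bax (-0.01 without MIZ-1WT replicate 1, up to 0.10) and Bak1 (-0.01 without MIZ-1WT replicate 2, up to 0.28).

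The correlation between deviations of same-numbered libraries was -0.0688 over 14554 genes. With 2 libraries per genotype this cannot show whether same-numbered libraries were handled together, and the labels do not say. With a replicate block, 6 family genes, 21 pathway genes and 4732 genes over all were called, and the call of Bcl2a1d was lost (adjusted p = 0.0672 in edgeR).

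With the median length of coding transcripts in place of all exons, the ratio to Bcl2 in MIZ-1WT and MIZ-1△POZ was 0.627 and 0.466 for Bcl2l11, 1.72 and 1.42 for Bax and 18.2 and 11.3 for Mcl1. For Bcl2l1, from 157 to 211 counts per library, the 95% interval of the log2 fold change was wide, from -0.28 to 0.59.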
